A study of Mus musculus with 2 samples.

Results

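The genes described here encode 9 G protein-coupled receptors of the autonomic nervous system: the alpha-1 adrenergic receptors Adra1a, Adra1b and Adra1d, the alpha-2 adrenergic receptors Adra2a, Adra2b and Adra2c, the beta-1 adrenergic receptor Adrb1, and the muscarinic acetylcholine receptors Chrm1 and Chrm2. They were listed by name, and all 9 were found among the 55536 annotated genes of the deposited gene tables. Total RNA was measured in 2 libraries of 1 group: hearts of male B6CASTF1/J mice, a first-generation hybrid of the B6 and CAST strains, at 10 days of age, with no treatment or altered allele named. Replicate 1 is labelled as male 3 and replicate 2 as male 4, but a single donor record is cited for the pair, so the spread between them may be technical. Each library started from 300 ng of RNA with ribosomal RNA reduced, strand kept and ERCC spike-in RNAs added, and the gene tables summed to 38851514 expected counts for replicate 1 and 37907585 for replicate 2. With 1 group, no condition was compared: the results below are levels, the order of the levels and the difference between the libraries.

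Noradrenaline from sympathetic nerves and adrenaline from the blood act on the adrenergic receptors, and acetylcholine from parasympathetic nerves acts on the muscarinic receptors. In the heart, the beta-1 receptor works through the G protein Gs and cyclic AMP and raises the rate and force of the beat, whereas the M2 muscarinic receptor works through Gi proteins, opens potassium channels in pacemaker and atrial cells and slows the rate. Alpha-1 receptors work through Gq proteins and phospholipase C and are known for roles in heart muscle growth and contraction, and alpha-2 receptors, which work through Gi proteins, are known for limiting noradrenaline release from nerve endings.

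The 4 upstream sequences below are shown because they belong to the 3 genes with the highest levels, and Adra1b has 2 annotated starts. The Adra1b shares given further on are of GENCODE transcripts, which start at chr11:43901210 and chr11:43836332. The GENCODE start of Adrb1 is chr19:56722199. The Adra1b and Adrb1 windows stop short of these starts, so they do not directly adjoin the quantified transcripts. Each sequence is the 250 bases before a RefSeq start, from RefSeq on GRCm38.p6, written 5′ to 3′ on the gene's strand. Matches to the searched motifs are in capitals.
Chrm2 (chr6:36387834-36388083, plus strand): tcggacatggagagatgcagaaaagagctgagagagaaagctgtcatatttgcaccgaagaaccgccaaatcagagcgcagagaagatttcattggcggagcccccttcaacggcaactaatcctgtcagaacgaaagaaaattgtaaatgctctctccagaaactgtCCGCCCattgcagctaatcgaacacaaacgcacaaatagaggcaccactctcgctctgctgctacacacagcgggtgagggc
Adra1b upstream start (chr11:43901238-43901487, minus strand): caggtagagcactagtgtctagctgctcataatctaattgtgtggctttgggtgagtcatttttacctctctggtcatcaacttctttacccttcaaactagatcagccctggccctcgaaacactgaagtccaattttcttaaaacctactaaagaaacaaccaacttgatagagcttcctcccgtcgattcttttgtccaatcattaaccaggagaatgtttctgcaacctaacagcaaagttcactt
Adra1b downstream start (chr11:43836490-43836739, minus strand): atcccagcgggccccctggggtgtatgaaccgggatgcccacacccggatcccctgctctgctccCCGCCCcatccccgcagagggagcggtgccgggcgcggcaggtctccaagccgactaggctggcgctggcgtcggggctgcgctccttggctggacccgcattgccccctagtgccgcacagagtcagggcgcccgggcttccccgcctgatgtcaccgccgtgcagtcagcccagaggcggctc
Adrb1 (chr19:56721867-56722116, plus strand): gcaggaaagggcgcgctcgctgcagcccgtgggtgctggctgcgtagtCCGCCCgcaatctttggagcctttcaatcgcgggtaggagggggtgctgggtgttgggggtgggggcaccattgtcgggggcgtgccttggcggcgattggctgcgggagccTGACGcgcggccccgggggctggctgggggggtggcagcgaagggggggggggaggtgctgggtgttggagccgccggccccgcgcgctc

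The motifs searched on both strands were the GC box GGGCGG, the cyclic AMP response half-site TGACG, the M-CAT motif CATTCC, the GATA core GATAA and the TATA box TATAAA, none of which overlapped another in the 4 windows shown. The upstream Adra1b window held none of the 5 motifs, and 41.6% of its bases were G or C. The downstream Adra1b window held 1 GC box and was 72.8% G or C. The Chrm2 window held 1 GC box at 50% G or C, and the Adrb1 window held 1 GC box and 1 TGACG at 74% G or C. Of all 32851 windows of the same length, 32.7% held a GC box, 17.8% TGACG, 12.6% CATTCC, 22.6% GATAA and 12.4% TATAAA, and the median window was 52.4% G or C. The table matched 6 of the 9 genes, in 7 windows. A match is a description of letters and not a measured binding site.

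Levels are given as TPM, a read count corrected for transcript length and scaled to a fixed sum, so that different genes can be set side by side. A gene was counted as detected at 1 TPM or more in both libraries. By that limit 5 of the 9 receptor genes were detected (Chrm2, Adra1b, Adrb1, Adra1a and Adra1d), beside 52.4% of the 22028 protein-coding genes. Summed over the 9 genes, the level was 49.5 TPM in replicate 1 and 59.0 TPM in replicate 2. The 3 alpha-1 genes held 44.7% and 43.4% of that sum in replicates 1 and 2, the 2 muscarinic genes 34.7% and 40.0%, Adrb1 19.2% and 15.2%, and the 3 alpha-2 genes 1.51% and 1.42%.

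**Figure D1:**
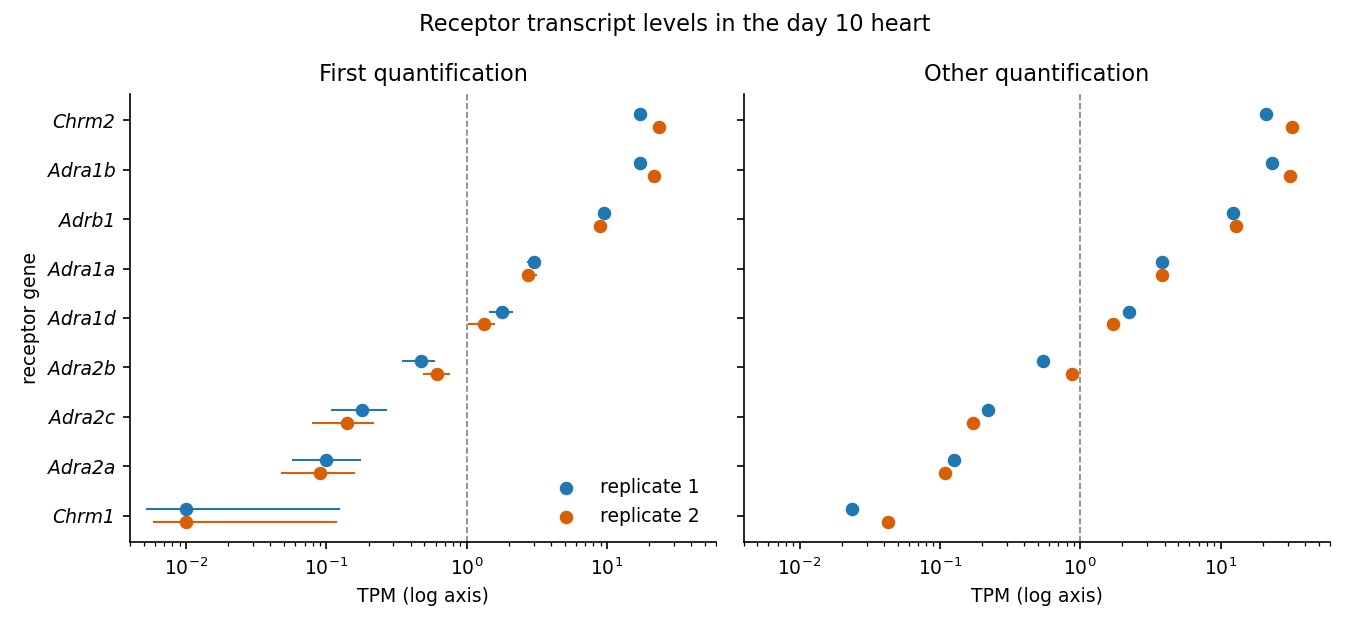
TPM of each receptor gene on a log axis in replicate 1 (blue) and replicate 2 (orange), in the first quantification (left, with the deposited credibility bounds as lines, whose level is not given in the sources used here) and in the other quantification (right, no bounds). The dashed line marks 1 TPM: Chrm2, Adra1b, Adrb1, Adra1a and Adra1d lie above it in both libraries and both quantifications, and the other 4 genes lie below it.

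Among the alpha-1 receptors, Adra1b (ENSMUSG00000050541.14, mm10 chr11:43774606-43901210, minus strand) was the most abundant, with 17.31 TPM in replicate 1 and 21.5 TPM in replicate 2, a mean of 19.4 ± 2.96 TPM (SD, n = 2). It held 78.3% and 84.1% of the alpha-1 TPM in replicates 1 and 2. Adra1a (ENSMUSG00000045875.13, chr14:66635251-66771168, plus strand), the other alpha-1 receptor known from heart muscle cells, had 3.01 and 2.75 TPM, a mean of 2.88 ± 0.18 TPM (SD, n = 2). Within each library the log2 ratio of Adra1a over Adra1b, with 0.1 TPM added to each, was -2.48 in replicate 1 and -2.92 in replicate 2 (mean -2.70 ± 0.31, SD, n = 2), so that Adra1a was 5.60-fold and 7.58-fold lower. The sign was the same in both libraries, and an exact sign-flip test of 2 pairs cannot give a two-sided p below 0.5. Adra1d (ENSMUSG00000027335.9, chr2:131545850-131562283, minus strand), known mainly from arteries, had 1.8 and 1.32 TPM, from 98 and 76 counts, so it lay nearest to the detection limit.

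The alpha-2 receptors were all below 1 TPM. Adra2b (ENSMUSG00000058620.5, chr2:127363208-127367221, plus strand), known from vascular muscle, had 0.47 TPM in replicate 1 and 0.61 TPM in replicate 2, from 54 and 77 counts. Adra2c (ENSMUSG00000045318.6, chr5:35278319-35281763, plus strand) had 0.18 and 0.14 TPM from 18 and 15 counts, and Adra2a (ENSMUSG00000033717.6, chr19:54044151-54048982, plus strand) had 0.1 and 0.09 TPM from 12 and 10 counts. Both of these are known as the receptors on sympathetic nerve endings, whose cell bodies lie outside the heart. All 3 alpha-2 genes had counts above a floor of 3 in each library, so reads were present at a low level and not absent.

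Adrb1 (ENSMUSG00000035283.5, chr19:56722199-56733113, plus strand), the beta-1 receptor, had 9.49 TPM in replicate 1 and 8.96 TPM in replicate 2, from 806 and 763 counts, a mean of 9.23 ± 0.37 TPM (SD, n = 2). Chrm2 (ENSMUSG00000045613.9, chr6:36388084-36528414, plus strand), the M2 receptor, had the highest mean of the 9 genes, 20.4 ± 4.54 TPM (SD, n = 2), with 17.17 TPM in replicate 1 and 23.59 TPM in replicate 2. The log2 ratio of Adrb1 over Chrm2, with 0.1 TPM added to each, was -0.85 in replicate 1 and -1.39 in replicate 2 (mean -1.12 ± 0.38, SD, n = 2). Thus the transcript of the receptor that raises the rate was 1.80-fold and 2.61-fold less abundant than that of the receptor that slows it. These are transcript levels, and receptor protein was not measured. Chrm1 (ENSMUSG00000032773.9, chr19:8663789-8683587, plus strand), the M1 receptor known from neurons, had 1 count and 0.01 TPM in each library. The exact 95% Poisson interval of that count ran from 0.0253 to 5.57, and the count lay under the floor of 3. By the other quantification Chrm1 had 4.05 counts in replicate 1 and 7.07 in replicate 2, above that floor. Its level there was 0.023 and 0.042 TPM.

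By mean TPM the order was Chrm2, Adra1b, Adrb1, Adra1a, Adra1d, Adra2b, Adra2c, Adra2a and Chrm1. Neighbours in this order had separate ranges over the libraries except the first pair: Chrm2 (17.17 to 23.59 TPM) and Adra1b (17.31 to 21.5 TPM) overlapped, and their order was not the same in both libraries. The deposited credibility bounds of Adra2c and Adra2a, and those of Adra2a and Chrm1, also overlapped in both libraries. In replicate 1 they were 0.108 to 0.27 TPM for Adra2c, 0.057 to 0.175 TPM for Adra2a and 0.0052 to 0.125 TPM for Chrm1, so at these counts the last 3 genes are less firmly ordered than those above them. Among 22028 protein-coding genes, 18.8% were at or above the level of Chrm2 in replicate 1 and 12.1% in replicate 2. For Adrb1 these shares were 29.1% and 27.4%, and for Adra1a 45.4% and 44.5%. No gene was named for a pattern like that of a receptor, since 2 libraries of 1 group give no pattern to match.

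The difference between the libraries was measured as the log2 ratio of replicate 1 over replicate 2, from counts rounded to whole numbers and scaled to the bulk of genes by the TMM method, with 0.5 added. Each ratio has an exact 95% interval that covers counting error only. A gene was counted as over 2-fold apart where its mean count was at least 50, the ratio passed 2-fold and the interval left out 0. Of the 6 receptor genes with that count, 0 were over 2-fold apart, beside 1.79% of the 13213 genes measured in the same way (0.984% higher and 0.802% lower in replicate 1). No p-value was computed, since 1 group of 2 libraries gives no test across animals.

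Within that limit, Chrm2 and Adra1b were both lower in replicate 1 than in replicate 2, and the interval of Adrb1 contained 0. Chrm2, with 2802 counts in replicate 1 against 4105 in replicate 2, had a log2 ratio of -0.69 (interval -0.76 to -0.62), or 0.619 of the replicate 2 level. Adra1b had 1262 and 1632 counts, a log2 ratio of -0.51 (-0.62 to -0.41), and Adra2b had a log2 ratio of -0.65 (-1.18 to -0.13). These 3 of 6 intervals left out 0, beside 42.9% of the genes with a mean count of at least 50. All 3 lay below 0, beside 22.3% of genes, and 0 of 6 lay above 0, beside 20.5% of genes.

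Adrb1 had a log2 ratio of -0.06 (-0.21 to 0.08), Adra1a, with 348 and 343 counts, of -0.12 (-0.34 to 0.10), and Adra1d of 0.22 (-0.22 to 0.68). Their intervals contain 0 and also leave room for differences of the sizes at their ends. Over the 8 receptor genes with a mean count of at least 10, the median log2 ratio was -0.09, beside -0.01 over the 16741 genes with that count. The ratio of the deposited TPM runs higher: its median over all genes was 0.21, and the TPM ratio of Chrm2 was -0.46, or -0.67 relative to that median. Differences between the libraries were therefore read from the scaled counts and not from TPM. Summed TPM of gene lists, given below, are levels and are not corrected for this shift.

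**Figure D2:**
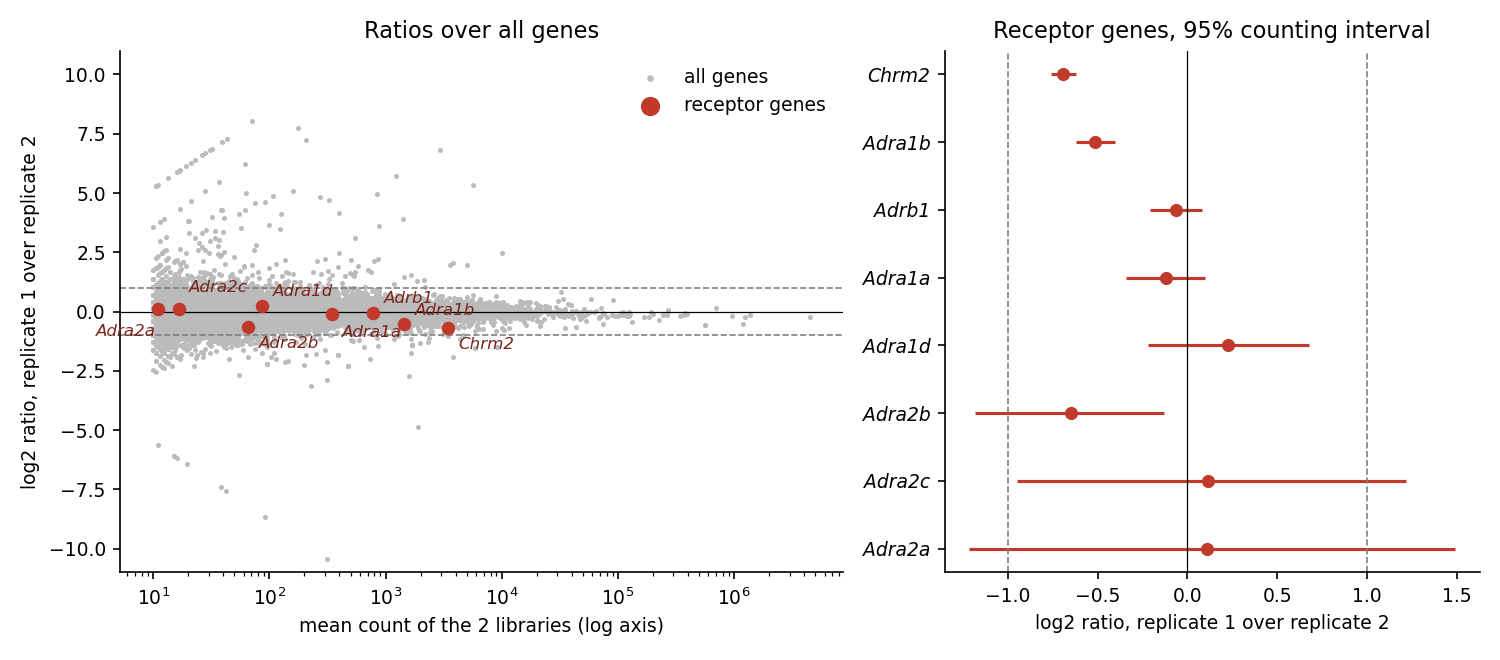
Left, the log2 ratio of replicate 1 over replicate 2 against the mean count of both libraries (log axis) for all genes with a mean count of at least 10 (grey) and for the receptor genes with that count (red). Right, the ratios of the same receptor genes with their exact 95% counting intervals as lines; dashed lines mark 2-fold. The intervals of Chrm2 (-0.76 to -0.62), Adra1b (-0.62 to -0.41) and Adra2b (-1.18 to -0.13) lie left of 0.

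The libraries also differed in markers of other cells. All 10 atrial markers had a ratio above 0, 7 of them over 2-fold, and their summed level was 1573 TPM in replicate 1 and 302 TPM in replicate 2, with none at 0. Of 9 adipocyte markers, 7 had a mean count of at least 50 and all 7 were over 2-fold higher in replicate 1, with a summed level of 433 TPM in replicate 1 and 31.7 TPM in replicate 2. Lep and Retn, 2 defining adipocyte markers, had 4 and 3 counts in replicate 1 and 0 in replicate 2 by the first quantification, whereas by the other Retn had 2.08 counts in replicate 1 and 3.12 in replicate 2. Of 11 Schwann cell and neuron markers, 2 were over 2-fold higher in replicate 1, S100b among them, the summed level was 27.0 and 10.3 TPM in replicates 1 and 2, and Snap25 was at 0 counts in replicate 2. Fibroblast markers had a median log2 ratio of 0.39 (7 of 8 intervals above 0, summed levels of 1952 TPM in replicate 1 and 1235 TPM in replicate 2), and macrophage markers 0.46 (5 of 7 intervals above 0, 65.4 and 41.0 TPM). Smooth muscle and pericyte markers had a median of 0.22 (4 of 8 intervals above 0 and 2 below, 596 and 455 TPM), and endothelial markers 0.07 (4 of 7 intervals above 0, 1040 and 736 TPM), with none of these 4 lists over 2-fold apart in any gene or holding a gene at 0. By contrast, 6 heart muscle markers (Myh6, Myl2, Myl3, Actc1, Tnnt2 and Tnni3) had a median log2 ratio of -0.15. Of their intervals, 5 of 6 lay below 0 and 1 above. They were listed for ventricular muscle, but not all of them are limited to the ventricle. Their summed levels, 33747 and 31427 TPM in replicates 1 and 2, went the other way and are not corrected for the TPM shift given above. The part of these markers in the ratios of Chrm2, Adra1b and Adra2b was not tested. In bulk tissue, fewer cells of a type and less RNA per cell cannot be told apart.

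Transcripts of the receptors were read from 2 quantifications that the authors deposited, the first made from transcriptome alignments and the other straight from reads. For Adra1b they gave different answers about which start was used. Transcripts from the upstream start (Adra1b-201 and Adra1b-203) held 41.8% of the gene's TPM in replicate 1 and 45.1% in replicate 2 by the first, against 75.9% and 74.5% by the other. Those from the downstream start (Adra1b-202 and Adra1b-204) held 58.2% and 54.9% by the first and 24.1% and 25.5% by the other. The choice of quantification moved these shares more than the choice of library did.

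Part of the Adra1b annotation cannot be resolved from reads. Adra1b-202, annotated as a processed transcript, and Adra1b-204, annotated as coding, have identical sequences of 3047 bases, and both quantifications gave them equal shares. Adra1b-201 was listed at 0 counts in both libraries by the first quantification and at 15.4% and 12.4% of the gene's TPM in replicates 1 and 2 by the other. Adra1b-203, which ends inside the coding sequence with no stop codon annotated, held 60.5% and 62.2% by the other quantification. The level of the gene as a whole was less affected: 23.2 TPM in replicate 1 and 31.5 TPM in replicate 2 by the other quantification.

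Adra1a is annotated with several last coding exons, which give receptors that differ in their carboxyl-terminal tail. The sequences below are shown because the shares that follow count these endings. Each gives in lower case the last 45 coding bases before the transcript's path leaves the others, and in capitals the bases after that point up to and including the stop codon (mm10, plus strand, from the GENCODE M21 transcript sequences). The coordinates of Adra1a-203 and Adra1a-206 span an intron that is not printed.
Adra1a-203, short ending (chr14:66727787-66731578): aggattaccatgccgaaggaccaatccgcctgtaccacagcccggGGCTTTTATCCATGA
Adra1a-202, longer ending (chr14:66727787-66727963): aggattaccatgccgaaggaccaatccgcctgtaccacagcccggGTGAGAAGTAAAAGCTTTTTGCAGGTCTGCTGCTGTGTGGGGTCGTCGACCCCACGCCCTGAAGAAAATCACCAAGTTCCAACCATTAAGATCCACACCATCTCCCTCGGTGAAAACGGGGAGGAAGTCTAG
Adra1a-206, truncated ending (chr14:66638416-66770589): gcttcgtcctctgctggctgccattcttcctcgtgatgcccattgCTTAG

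The short ending adds 15 bases after the shared part, stop codon included, and the longer ending 132 bases. Adra1a-206 branches off at the end of the first coding exon and adds 5 bases, for a coding sequence of 885 bases beside 1281 in Adra1a-203 and 1398 in Adra1a-202, stop codon not counted. The short ending held 48.5% of the Adra1a TPM in replicate 1 and 40.4% in replicate 2 by the first quantification, and 48.7% and 40.5% by the other. The 3 transcripts with the longer ending (Adra1a-201, Adra1a-202 and Adra1a-205) together held 38.2% and 42.6% by the first and 39.4% and 45.5% by the other. Unlike Adra1b, Adra1a thus gave close shares in both quantifications for its groups of transcripts.

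Within the longer ending the split was not stable. Adra1a-201 held 6.4% in replicate 1 and 22.8% in replicate 2 by the first quantification and 0% and 10.9% by the other, while Adra1a-205 held 7.25% and 0.43% by the first and 16.2% and 16.5% by the other. The retained-intron transcript Adra1a-204, which is not annotated as coding, held 7.89% and 10.7% by the first quantification. Adra1a-206 held 5.42% and 6.31%. Behind these shares were 348 counts in replicate 1 and 343 in replicate 2.

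**Figure D3:**
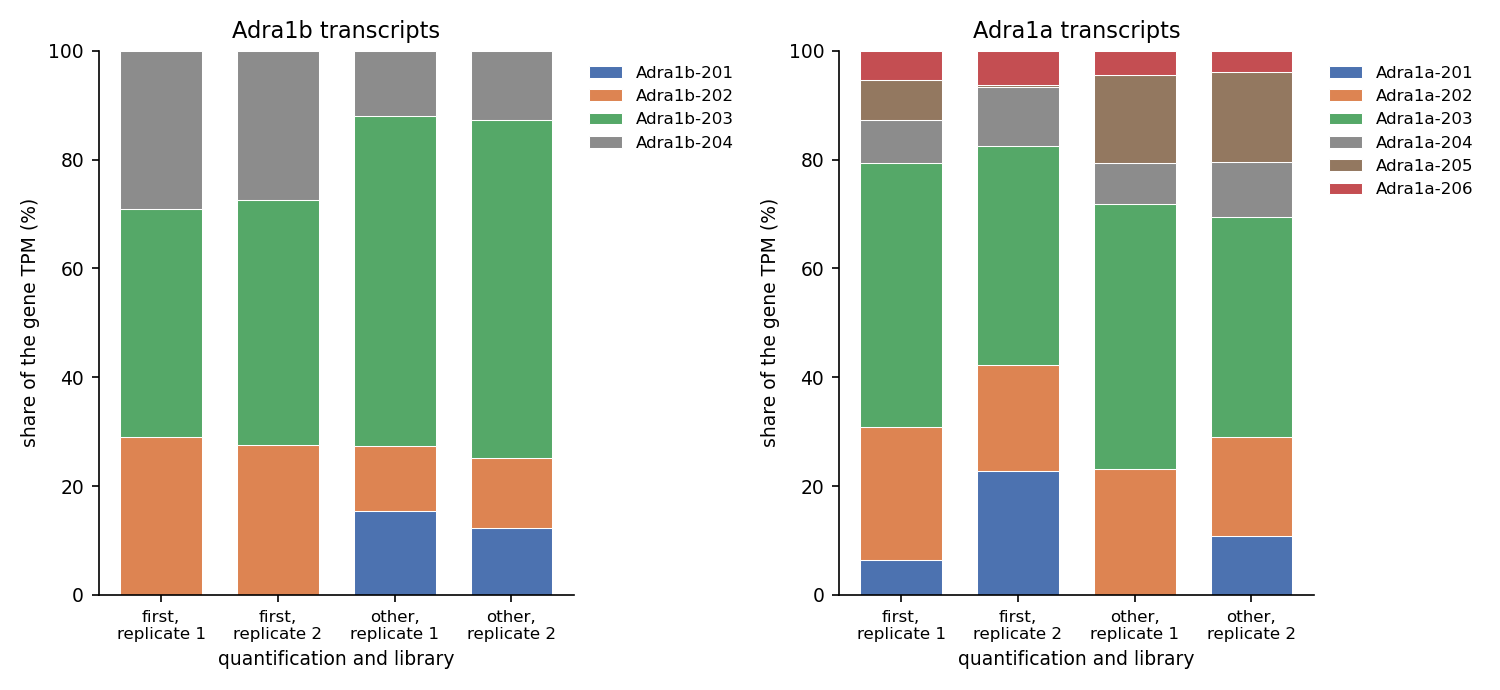
Stacked bars give each transcript's share of the gene TPM in percent for Adra1b (left) and Adra1a (right), by quantification (first or other) and library. Adra1b-203 (green, left) is higher in the other quantification in both libraries, while Adra1a-203 (green, right), which has the short ending, holds 48.5% and 40.4% in the first and 48.7% and 40.5% in the other.

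The remaining receptor genes have simpler structures. Adra2a, Adra2b, Adra2c, Adrb1, Chrm1 and Chrm2 each have their longest coding sequence in 1 exon, and the 3 alpha-1 genes in 2. Chrm2-202, the coding transcript, held 96.4% and 97.1% of the Chrm2 TPM in replicates 1 and 2, and Adrb1-201 held 98.2% and 92.1% of the Adrb1 TPM. The rest of Adrb1 was Adrb1-202, a noncoding transcript of 494 bases, with 2 and 9 counts in replicates 1 and 2. In Adra2b the first quantification placed all 54 counts of replicate 1 on Adra2b-201 and all 77 counts of replicate 2 on Adra2b-202, whereas the other gave Adra2b-201 18.6% and 47.9%. By the first quantification Adra2a-201 held 37.5% in replicate 1 and 0% in replicate 2 and Adra2a-202 the rest, from 12 and 10 counts. The single Chrm1 count of that quantification fell on Chrm1-202 in replicate 1 and on Chrm1-201 in replicate 2. The other placed 100% of the Chrm1 TPM on Chrm1-202 in both libraries.

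The coding sequences of the 9 genes ran from 453 codons (Adra2b) to 562 codons (Adra1d), stop codon not counted, and from 48.3% G or C in Chrm2 to 68.7% in Adrb1. Stretches of 31 bases shared with transcripts of other genes made up at most 2.03% of a receptor gene (Adrb1), and none were found in Adra1d, Adra2a, Adra2c and Chrm2. Chrm2 overlaps a long noncoding RNA on the opposite strand, 9330158H04Rik, which had 164 counts in replicate 1 and 156 in replicate 2. Whether counting used strand was not given in the sources used here, so reads in that overlap are uncertain. The miRNA gene Mir490 within Chrm2 had 0 counts in both libraries.

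Of 4 other receptor genes of the same families, none was detected. Chrm3, the M3 receptor known from smooth muscle and glands, had 0.75 TPM in replicate 1 and 0.43 TPM in replicate 2, from 70 and 54 counts. Chrm4 had 3 and 0 counts and Chrm5 had 0 in both libraries. Adrb3, the beta-3 receptor known from brown fat, had 19 counts in replicate 1 against 1 in replicate 2, a log2 ratio of 3.56 with a counting interval of 1.45 to 9.48. The adipocyte markers given above were higher in the same library, and their part in the Adrb3 ratio was not tested.

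Among the genes whose proteins carry the signals of these receptors, the most abundant stood above every receptor gene in TPM. Of 12 G protein alpha subunits, 9 were detected and 0 were over 2-fold apart between the libraries, with a median log2 ratio of 0.11 beside -0.01 over all genes. Gnas, which encodes the Gs subunit used by the beta-1 receptor, had 878 TPM in replicate 1 and 601 TPM in replicate 2. Gnai2, a Gi subunit used by the M2 and alpha-2 receptors, had 176 and 147 TPM, and Gna12, of another class, had 36.5 and 32.8 TPM. The Gq subunits Gna11 and Gnaq, named here for their role with the alpha-1 receptors and after their values were seen, had 24.7 and 19.7 TPM and 15.6 and 13.5 TPM in replicates 1 and 2. Gnaz, Gna14 and Gna15 were below 1 TPM in both libraries.

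Of 15 beta and gamma subunits, 10 were detected and 0 were over 2-fold apart, with a median log2 ratio of 0.13. The highest were Gnb2 at 201 TPM in replicate 1 and 158 TPM in replicate 2, Gnb1 at 129 and 100 TPM, and Gng5 at 104 and 93.6 TPM. Gng3, Gng4, Gng7, Gng8 and Gng13 were below 1 TPM in both libraries. Of 7 kinases and arrestins that switch off active receptors, 6 were detected and 0 were over 2-fold apart, with a median log2 ratio of -0.02. Grk2, the main kinase of active beta receptors in the heart, had 23.9 and 16.8 TPM in replicates 1 and 2, Grk6 11.9 and 9.36 TPM, and Grk5 11 and 9.36 TPM, while Grk4 stayed below 1 TPM.

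Of 11 RGS genes, whose proteins shorten G protein signals, 9 were detected, and the median log2 ratio was 0.06. Rgs5, known from pericytes, was the highest at 159 TPM in replicate 1 and 143 TPM in replicate 2, followed by Rgs2 at 29.6 and 24.0 TPM and Rgs3 at 21.4 and 20.8 TPM. Rgs7, known from neurons, was the 1 gene of the list over 2-fold apart, with 98 counts in replicate 1 against 24 in replicate 2, a log2 ratio of 1.87 (1.23 to 2.60). Rgs14 was below 1 TPM in both libraries. The neuron and Schwann cell markers given above had a median log2 ratio of 0.72, and their part in the Rgs7 ratio was not tested.

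Of 17 effectors, 15 were detected, and the median log2 ratio was 0.01. Prkar1a and Prkaca, a regulatory and a catalytic subunit of the cyclic AMP-dependent protein kinase, had 230 and 166 TPM in replicate 1 and 196 and 145 TPM in replicate 2. Adcy6, an adenylyl cyclase of heart muscle, had 83.4 and 102 TPM in replicates 1 and 2 and a log2 ratio of -0.48 (-0.52 to -0.45). Prkar2b, a regulatory subunit of the same kinase known from fat and brain, was the 1 effector over 2-fold apart, with 1645 counts in replicate 1 against 120 in replicate 2, which was 12.4-fold higher in replicate 1. Plcb2 was below 1 TPM in both libraries. The part of the adipocyte markers in the Prkar2b ratio was not tested.

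The potassium channel that the M2 receptor opens is built of the products of Kcnj3 and Kcnj5, which are named here for that role and after their values were seen. Kcnj3 had 11.6 TPM in replicate 1 and 6.85 TPM in replicate 2, with a log2 ratio of 0.33 (0.22 to 0.45), the opposite direction to Chrm2. Kcnj5 had 19.4 and 18.2 TPM and a log2 ratio of -0.15 (-0.23 to -0.07). The atrial markers given above, among which Nppa had a log2 ratio of 2.48, were higher in replicate 1, and their part in the Kcnj3 ratio was not tested.

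Genes that make, carry or break down the transmitters were mostly at low levels. Of 11 catecholamine genes, 4 were detected and 0 were over 2-fold apart, with a median log2 ratio of 0.03. Ddc, the decarboxylase of the synthesis pathway, had 4.59 TPM in replicate 1 and 4.25 TPM in replicate 2, and Maob, a monoamine oxidase, had 4.82 and 3.51 TPM. Th, the rate-limiting enzyme of synthesis, had 1 count in replicate 1 and 0 in replicate 2. Slc6a2, the noradrenaline transporter of nerve endings, had 9 and 12 counts, and Pnmt, which makes adrenaline, had 4 and 5. Th, Slc6a2, Pnmt, Slc18a1, Slc18a2 and Slc22a3 were below 1 TPM in both libraries.

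Of 6 acetylcholine genes, 3 were detected and 0 were over 2-fold apart. They were Bche at 4.72 and 4.48 TPM in replicates 1 and 2, Colq at 2.23 and 3.29 TPM, and Ache, the enzyme that breaks acetylcholine down, at 1.92 and 1.84 TPM. Chat, which makes acetylcholine, and Slc18a3, which loads it into vesicles, had 0 counts in both libraries, and a count of 0 allows up to 3 counts, or 0.0772 CPM in replicate 1 and 0.0791 CPM in replicate 2. Slc5a7, the choline transporter, had 10 and 20 counts. The median log2 ratio of the 4 genes with a mean count of at least 10 was -0.52, with 1 interval below 0.

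Of 8 genes of nerve growth and sympathetic peptides, 3 were detected and 0 were over 2-fold apart, with a median log2 ratio of 0.19. Nrtn, which encodes neurturin, a growth factor for parasympathetic neurons, had 8.77 TPM in replicate 1 and 6.72 TPM in replicate 2, and its receptor subunit Gfra2 had 2.67 and 1.95 TPM. Npy, a peptide of sympathetic nerves, and Gdnf were below 1 TPM in both libraries.

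**Figure D4:**
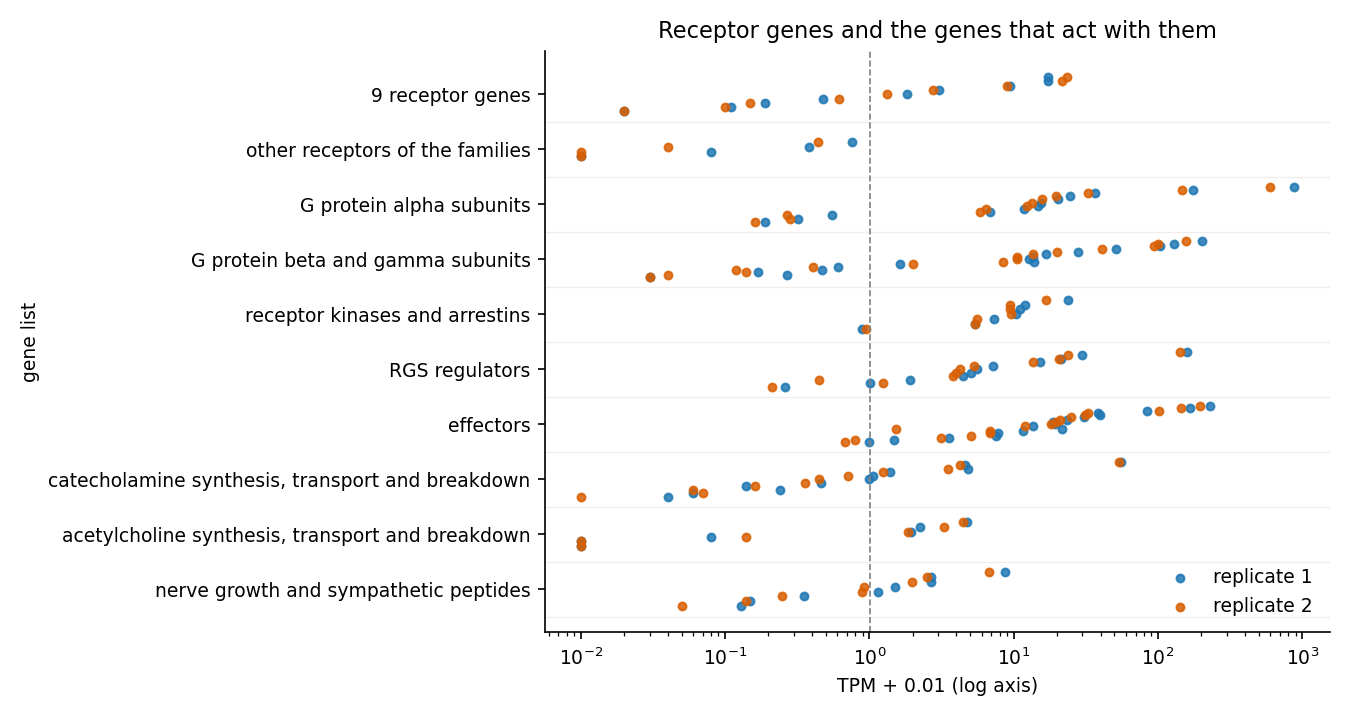
TPM plus 0.01 on a log axis for the 9 receptor genes and for the genes of each other list, with replicate 1 in blue and replicate 2 in orange. The dashed line marks the detection limit of 1 TPM: 9 of 12 G protein alpha subunits and 15 of 17 effectors reach it in both libraries, and so do 3 of 6 acetylcholine genes and 4 of 11 catecholamine genes.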

How the data were processed

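The members and the gene lists were chosen with earlier results of these data known. Each library came with a gene table and a transcript table from a quantification of alignments to the transcriptome, and with a transcript table from another quantification made from reads. Per the deposited notes, both used mm10 and GENCODE M21, and per the labels each library was a stranded, ribosome-reduced total RNA library. The names of the programs, and whether counting used strand, are not given in the sources used here. Reads of the CAST alleles were assigned to this same annotation, and the effect was not tested.

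Per the file headers, the authors' tables hold expected counts, some of them fractional, and the other quantification's deposited tables hold estimated counts. TPM and FPKM are the authors' values, per the file headers. The authors' credibility bounds of TPM and posterior SDs were treated as signal values. Each transcript's deposited percent of its gene (IsoPct) was used for shares in the first quantification, and shares in the other were computed from its TPM.

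Genes were matched by identifier to GENCODE M21 (55536 of 55536). Rows that name no gene (26249 rows, 3.89 counts in replicate 1 and 3 in replicate 2) and 96 ERCC controls were left out of the library sizes of the ratio. The total expected counts were 38851514 and 37907585, so 3 counts correspond to 0.0772 and 0.0791 CPM. Reads carry no molecular identifiers, so intervals and floors cover counting error only.

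Expected counts were rounded and scaled with edgeR 4.0.16 (TMM, R 4.3.3). DESeq2 1.42.0 size factors were an alternative. Log2 ratios had 0.5 added, with exact 95% Clopper-Pearson intervals (SciPy 1.17.1), and TPM ratios within a library had 0.1 TPM added. The ratio step was tested on simulated data with 200 changed genes. From the other lists, the text names up to 3 genes with the highest mean TPM, every gene over 2-fold apart and genes below 1 TPM in both libraries, plus genes said in the text to be named for their role. Some genes that this rule names are not reported here. Transcripts are named at a share of at least 10% in either quantification, and Adra1a-206, which stays below it, was added for its ending after its share was seen. Alternatives were the other quantification, FPKM, other scalings, pseudocounts, count minimums and detection limits, and leaving out each library. The ratio of the deposited TPM was added after the data were seen.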

Additional observations from a re-analysis of the deposited data

How the results depend on the processing

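No paired analysis was possible because the series holds 1 group of 2 libraries. The log2 ratio of Adra1a over Adra1b was -2.39 with 1 TPM added in place of 0.1. Leaving out each library in turn gave -2.92 to -2.48 for this ratio and -1.39 to -0.85 for Adrb1 over Chrm2. It left 5 genes detected each time and kept 7 to 9 of the 9 ranks. By the other quantification 7 of 9 genes kept their rank, with Adra1b (27.3 TPM) above Chrm2 (26.8 TPM), and at a limit of 2 TPM 4 genes were detected. No receptor gene was over 2-fold apart under any of the 6 alternatives tried for that count. Over all genes the count of genes over 2-fold apart was 236, and 921 with no minimum count. The share of these that were higher in replicate 1 was 55.1%, and 65.8% with total counts as the scaling and 67.0% in the other quantification. The median log2 ratio of the receptor genes ran from -0.12 with no minimum count to 0.01 with total counts, and was 0.11 in TPM, where the median of all genes was 0.21. The intervals of the same number of receptor genes, 3, lay below 0 under each of the count scalings. Chrm2 stayed lower in replicate 1 throughout, at -0.59 with total counts, -0.62 with ERCC counts and -0.46 in TPM. In TPM the ratios of Adra1b, Adrb1 and Adra1a were -0.31, 0.08 and 0.13, against a median of 0.21 over all genes. Of the 9 member levels, 9 moved by more than 1 SD in the other quantification and 7 in FPKM. FPKM is another unit, which within each library equals TPM times the same factor for every gene, apart from rounding. The 7 moves in FPKM therefore reflect the change of unit and cannot show whether the levels are stable. With 2 libraries, leaving out either cannot move a level by more than 1 SD, so that comparison cannot show stability. Apart from the change of unit in FPKM, the causes of the shifts between settings were not tested. Depth limits Chrm1, which had 1 count in each library by the first quantification, and 4.05 and 7.07 in replicates 1 and 2 by the other. With 2 libraries, leaving out either leaves no ratio between libraries.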
